A study of Mus musculus with 12 samples.

Results

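The regulators of G protein signaling (RGS) are described here through 9 mouse genes, Rgs1, Rgs2, Rgs3, Rgs4, Rgs5, Rgs10, Rgs16, Rgs18 and Rgs19, taken by symbol from the 54532 Ensembl genes of a table of FPKM (a level scaled for gene length and sequencing depth) made by RNA-seq of the mouse abdominal aorta. All 9 were found and all 9 were tested. The study asked what loss of the matricellular protein CCN2 in smooth muscle cells (SMCs) does to the aorta during infusion of angiotensin II (Ang II). Its 12 male mice formed 4 groups of 3, and each library came from 1 mouse.

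Mice with floxed CCN2 alleles and no Cre (CCN2fl/fl) received saline (CFS) or Ang II (CFA), and floxed mice carrying Myh11-Cre-ERT2 (CCN2SMCΔ) received saline (CSS) or Ang II (CSA). Every mouse, floxed controls included, was given 5 doses of tamoxifen at 8 weeks of age and then rested for 2 weeks. Ang II was delivered at 500 ng/kg/min by a mini-osmotic pump, the saline groups also carried pumps, and the aorta was taken on day 7. The Cre is driven by Myh11 and so is directed to Myh11-expressing cells, and CCN2 was not measured by cell type in this table.

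RGS proteins share a domain that binds active G protein alpha subunits and speeds their hydrolysis of GTP, which shortens the signal of G protein-coupled receptors. The R4 proteins (Rgs1, Rgs2, Rgs3, Rgs4, Rgs5, Rgs16 and Rgs18 here) act on Gi, Gq or both, Rgs10 of the R12 group acts on Gi class subunits, and Rgs19 of the RZ group acts on Gi and Gz. In the vessel wall Rgs5 is known as a mural cell gene and Rgs2 as a brake on the Gq signal of vasoconstrictors such as Ang II, whereas Rgs1, Rgs10, Rgs16, Rgs18 and Rgs19 are best known from leukocytes and platelets.

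Each library held 14558561 to 23107767 fragments as recovered from the FPKM steps, with CSA the shallowest group at 14558561 to 19132034. A value of 0 at this depth allows up to 3 fragments, which covers counting error only. The targeted gene, Ccn2, was listed at 710, 1108 and 480.1 FPKM for CFS, 436, 640 and 587 for CSS, 1013, 1105 and 564 for CFA and 255, 331 and 399 for CSA, so CSA lay below CFA in every library while CSS and CFS overlapped. Its log2 difference, on the scale defined below, was -1.41 in CSA versus CFA (limma adjusted p 0.00622) and -0.40 in CSS versus CFS (unadjusted p 0.256 in limma), and a gene-level value also counts any fragments outside the deleted stretch. The SMC markers (8 genes, none listed at 0) summed to 5466 to 10216 FPKM in CFS, CSS and CFA, as an aortic wall should show, but to 793 to 937 FPKM in CSA. The macrophage markers (8 genes, none at 0) ran the other way, from 250.1 to 699 FPKM outside CSA to 2298 to 2534 FPKM in CSA. The neutrophil markers reached 505 to 548 FPKM in CSA against at most 26.6 FPKM elsewhere, with Ly6g listed at 0 in 2 of the 3 CSA libraries. One library, CSA03, stood apart from its group, at a root mean square log2 difference of 1.21 and 1.199 from CSA01 and CSA02 against 0.505 between those mice, and each CSA test of a member, as well as the list counts in CSA versus CFA, was also run without it. The sums, ranks, correlations and marker ratios below include it. Skeletal muscle markers summed to 185 FPKM in CFS68 and 304 FPKM in CSS55 and to at most 6.22 FPKM in the other libraries.

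The RNA came from whole tissue, so fewer cells of a type and less RNA per cell cannot be told apart for any gene below. Differences are given on the scale of log2(FPKM + 0.1), tested with limma across all 14676 genes that passed the filter of at least 1 FPKM in at least 3 libraries, and adjusted by Benjamini-Hochberg. A gene was called when its adjusted p was under 0.05 and its log2 difference was over 1.5 in size. With 3 mice a group, an exact permutation test of a single gene cannot give a p below 0.1. The limma p-values set each difference against the spread between mice within groups, pooled over the 4 groups and moderated across genes. They rest on these mice only.

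Under Ang II, CCN2SMCΔ aortas had less Rgs5 and Rgs4, the RGS genes most abundant in the control wall, and more Rgs16, Rgs1, Rgs10, Rgs2 and Rgs19 than CCN2fl/fl aortas. In CSA versus CFA, 5 of the 9 members were called higher, where 8.95% of all tested genes were, and 2 were called lower, where 8.27% were. The member median was 1.71 on the log2 scale beside -0.04 for all tested genes. The member differences ran from -2.37 to 3.90, with 6 of 9 positive. Rgs1 and Rgs16 entered the test only through CSA, since each reached 1 FPKM in the 3 CSA libraries and in no other. Counts and the median over the members include both genes and are therefore a description. Leaving out CSA03 gave the same 5 and 2 calls, at backgrounds of 9.0% higher and 7.23% lower.

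**Figure D1:**
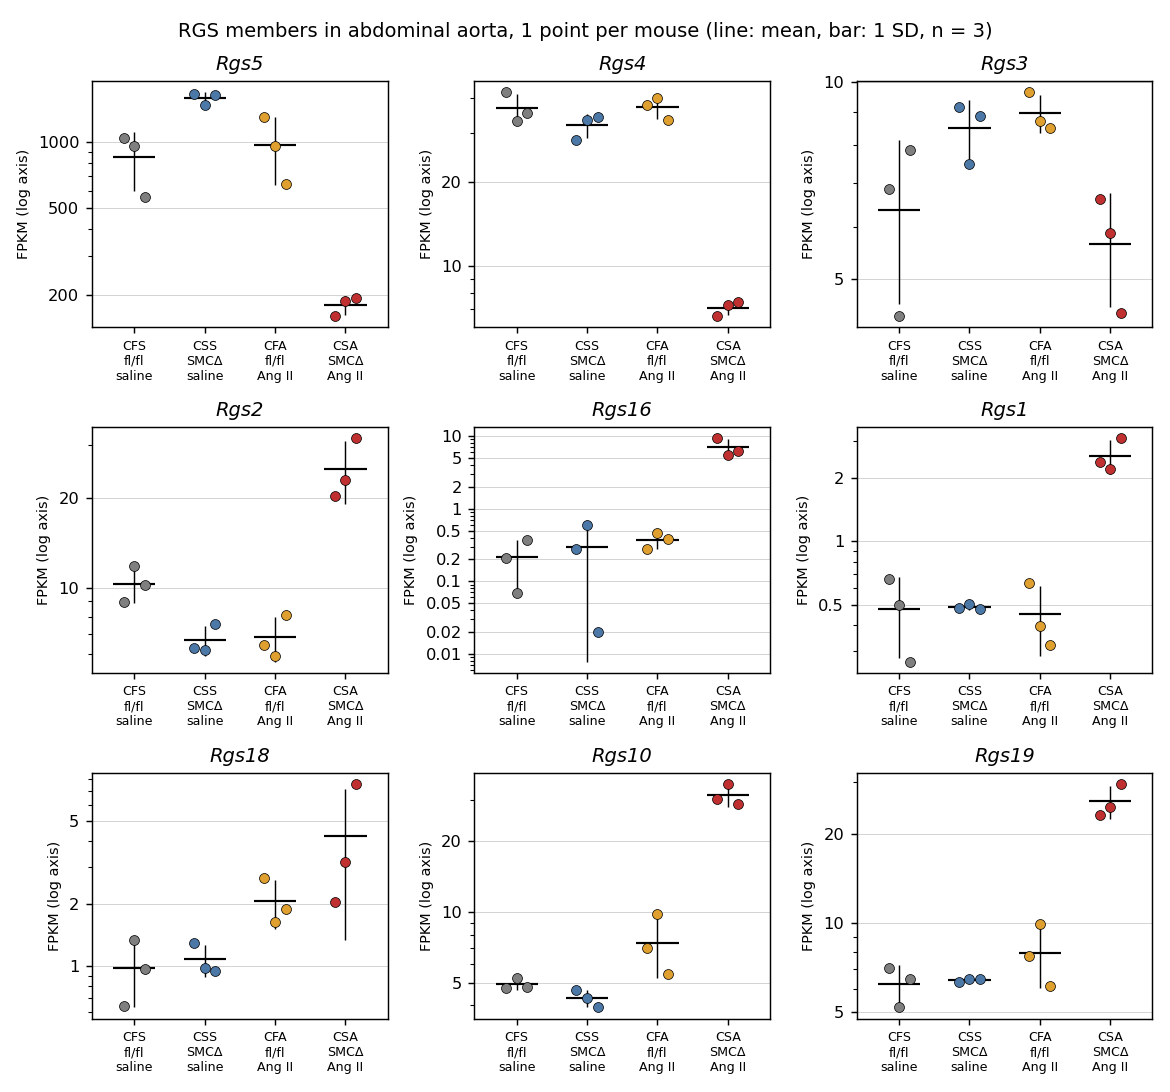
FPKM of the 9 RGS members on a log axis in every library, by group (CFS, CSS, CFA, CSA, 3 mice each), with points for mice and bars for the mean ± SD. Rgs5 and Rgs4 sit lowest in CSA, where Rgs5 is at 160.0 to 194 FPKM, and Rgs16, Rgs1, Rgs2, Rgs10 and Rgs19 sit highest there.

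The promoters of the members that changed most in each direction and had a window in the RefSeq table used are printed so that the genes that fell, Rgs5 and Rgs4, can be set beside genes that rose, Rgs16 and Rgs10. Each window holds the 250 bases before the RefSeq start on the strand of the gene, 5′ to 3′, from GRCm38.p6. Capitals mark the matches to 8 motifs searched on both strands. The windows are chr1:169655251-169655500 (+) for Rgs5, chr1:169747643-169747892 (−) for Rgs4, chr1:153740103-153740352 (+) for Rgs16 and chr7:128418173-128418422 (−) for Rgs10, the last lying inside the longest annotated span of its gene.
Rgs5: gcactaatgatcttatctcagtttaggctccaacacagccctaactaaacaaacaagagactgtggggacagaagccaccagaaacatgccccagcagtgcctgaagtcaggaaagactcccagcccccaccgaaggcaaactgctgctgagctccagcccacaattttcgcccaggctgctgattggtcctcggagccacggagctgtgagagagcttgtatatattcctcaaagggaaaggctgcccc
Rgs4: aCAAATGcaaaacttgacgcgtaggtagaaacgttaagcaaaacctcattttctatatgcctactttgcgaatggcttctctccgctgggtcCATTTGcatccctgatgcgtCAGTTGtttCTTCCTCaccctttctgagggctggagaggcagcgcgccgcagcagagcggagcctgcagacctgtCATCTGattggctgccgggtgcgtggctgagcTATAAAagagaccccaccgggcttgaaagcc
Rgs16: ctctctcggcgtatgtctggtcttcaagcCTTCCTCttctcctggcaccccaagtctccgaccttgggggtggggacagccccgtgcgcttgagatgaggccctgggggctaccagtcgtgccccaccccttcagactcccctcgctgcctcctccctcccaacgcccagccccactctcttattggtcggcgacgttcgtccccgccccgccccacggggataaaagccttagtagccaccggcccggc
Rgs10: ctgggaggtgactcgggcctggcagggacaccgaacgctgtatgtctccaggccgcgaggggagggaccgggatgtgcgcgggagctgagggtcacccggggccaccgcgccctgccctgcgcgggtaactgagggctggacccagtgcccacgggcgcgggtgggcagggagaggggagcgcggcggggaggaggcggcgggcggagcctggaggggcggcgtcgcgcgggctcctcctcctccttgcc

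The Rgs4 window held a TATA box (TATAAA) 31 to 26 bases before the start, E-boxes (CANNTG, a pattern that any site matches on both strands) at 249 to 244, 158 to 153, 138 to 133 and 63 to 58 bases, and an antisense ETS core (GAGGAAG) at 129 to 123 bases. The Rgs16 window held 1 match, an antisense ETS core 221 to 215 bases before the start. None of the 8 motifs was found in the windows of Rgs5, Rgs10 or Rgs2, which says only that these letters are not in these stretches. The 3 windows of Rgs19 each held the ETS core, and both windows of Rgs3 held the TATA box. Among all 32851 mouse promoter windows of this length, 12.4% held the TATA box, 66.2% an E-box and 10.6% the ETS core. The other motifs were AP-1 (TGANTCA, in 6.75% of windows), TEAD (GGAATG, 12.6%), SMAD (GTCTAGAC, 0.167%), the CArG box (1.47%) and the NF-kappaB site (3.90%), and none of them was found in the 10 windows of the 7 members searched. GC content was 53.6% for both Rgs5 and Rgs4, 66.4% for Rgs16, 72.4% for Rgs2 and 76.4% for Rgs10, against a median of 52.4% over all windows. CpG pairs numbered 4 in the Rgs5 window, 13 in Rgs4, 17 in Rgs16, 27 in Rgs10 and 30 in Rgs2, against a median of 6. RefSeq windows of Rgs1 and Rgs18 were not used here.

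On GRCm38, 6 of the 9 members lie on chromosome 1, as do 11 of the 21 protein-coding genes named Rgs with a number. Rgs2 (chr1:143999338-144004161, −), Rgs1 (chr1:144242296-144249242, −) and Rgs18 (chr1:144752683-144775435, −) form one run with Rgs13 and Rgs21, with 0 other protein-coding genes between them. Rgs5 (chr1:169655501-169695813, +) and Rgs4 (chr1:169741477-169747642, −) are neighbors on opposite strands, 45.663 kb apart, and Rgs16 is at chr1:153740349-153745468 (+). The others are Rgs3 (chr4:62559847-62704001, +), Rgs10 (chr7:128373621-128418758, −) and Rgs19 (chr2:181688419-181693977, −). All 9 are protein-coding. The neighbors Rgs5 and Rgs4 both fell in CSA, while in the run Rgs2 and Rgs1 rose and Rgs18 overlapped CFA.

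Rgs5 (ENSMUSG00000026678), a regulator of Gi and Gq in pericytes and arterial SMCs, was the most abundant member in every library. It measured 1041, 960.3 and 561 FPKM for CFS, 1656, 1487 and 1649 FPKM for CSS, 1307, 959 and 641 FPKM for CFA and 160.0, 186 and 194 FPKM for CSA. The highest CSA mouse lay far below the lowest mouse of any other group, the CSS mice lay above all the rest, and CFS and CFA overlapped. The group means were 854 ± 257 (SD, n = 3) in CFS, 1597 ± 95.8 in CSS, 969 ± 333 in CFA and 180.04 ± 17.8 in CSA. Against CFA the CSA level fell by 2.37 on the log2 scale (SE 0.27, limma adjusted p 5.78e-05), which is 5.18-fold lower. Against CSS it fell by 3.15 (SE 0.27, limma adjusted p 6.03e-06), or 8.89-fold. By mean FPKM, Rgs5 ranked 26 among the tested genes in CFS, 14 in CSS, 21 in CFA and 180 in CSA. In the CSA versus CFA comparison 599 genes had a larger decrease.

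Rgs4 (ENSMUSG00000038530), the next gene on the chromosome and likewise a regulator of Gi and Gq, was second to Rgs5 outside CSA. It measured 42.1, 33.1 and 35.5 FPKM for CFS, 28.5, 33.5 and 34.2 FPKM for CSS, 37.9, 40.1 and 33.5 FPKM for CFA and 6.63, 7.23 and 7.41 FPKM for CSA. The CFS, CSS and CFA values overlapped, and the CSA values formed a tight group below them. The level in CSA was 7.09 ± 0.410 FPKM against 37.2 ± 3.40 in CFA (SD, n = 3). This was a fall of 2.37 on the log2 scale (SE 0.13, limma adjusted p 6.80e-07), the smallest error of any member. Against CSS the difference was -2.16 (limma adjusted p 7.28e-07). The 5.18-fold decrease from CFA equalled that of Rgs5 to the digits given, although Rgs4 lacked the higher level that Rgs5 showed in CSS.

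Rgs3 (ENSMUSG00000059810), a larger R4 protein that also acts on Gi and Gq, changed far less. It measured 6.87, 4.39 and 7.86 FPKM for CFS, 9.16, 7.50 and 8.88 FPKM for CSS, 9.64, 8.73 and 8.503 FPKM for CFA and 6.62, 5.88 and 4.43 FPKM for CSA. CSA lay below CFA and CSS without overlap, and inside the range of CFS. The CSA to CFA difference was -0.67 (SE 0.21, limma adjusted p 0.0270) and the CSA to CSS difference was -0.60 (limma adjusted p 0.0401), so both passed on p and neither reached the fold limit. Without CSA03 these were -0.51 (adjusted p 0.0654) and -0.44 (adjusted p 0.104). The annotated exons of Rgs3 span 10801 bases in 36 blocks and give several transcripts, which a gene-level value cannot separate.

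Rgs2 (ENSMUSG00000026360), which is selective for Gq, had its highest level in CSA and its next highest in CFS. It measured 8.96, 11.8 and 10.2 FPKM for CFS, 6.28, 6.19 and 7.55 FPKM for CSS, 6.42, 5.91 and 8.13 FPKM for CFA and 20.3, 22.8 and 31.6 FPKM for CSA. The 3 CSA mice lay above every other mouse, the 3 CFS mice came next, and CSS and CFA overlapped. The mean was 24.9 ± 5.95 FPKM in CSA and 6.82 ± 1.16 in CFA (SD, n = 3), a difference of 1.84 (SE 0.19, limma adjusted p 2.50e-05) or 3.58-fold. Against CSS the difference was 1.87 (limma adjusted p 1.64e-05). CSA03 was the highest mouse, and without it the CSA to CFA difference was 1.66 and still called.

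Rgs16 (ENSMUSG00000026475), known as an inducible gene of activated leukocytes, was barely detected outside CSA. It measured 0.208, 0.0686 and 0.372 FPKM for CFS, 0.276, 0.5998 and 0.0196 FPKM for CSS, 0.275, 0.463 and 0.383 FPKM for CFA and 9.41, 5.502 and 6.28 FPKM for CSA. These values stand for 1 to 26 fragments a library outside CSA and 225 to 447 fragments in CSA, so the low values overlapped freely and the CSA mice stood clear of them. The CSA to CFA difference of 3.90 (SE 0.61, limma adjusted p 0.000425), or 14.9-fold on the log2(FPKM + 0.1) scale, was the largest of any member, and 244 tested genes had a larger increase. With a pseudocount of 1 FPKM in place of 0.1, the Rgs16 difference was 2.53 and still called. The CSA to CSS difference was 4.47 (SE 0.61, limma adjusted p 0.000134), or 2.63 with a pseudocount of 1. An overlapping gene shares 10.09% of the exonic bases of Rgs16, and the libraries did not mark strand.

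Rgs1 (ENSMUSG00000026358), a brake on chemokine receptors in lymphocytes, was also low outside CSA. It measured 0.662, 0.5002 and 0.267 FPKM for CFS, 0.480, 0.505 and 0.476 FPKM for CSS, 0.634, 0.393 and 0.319 FPKM for CFA and 2.38, 2.21 and 3.11 FPKM for CSA. CFS, CSS and CFA overlapped at 32 to 96 fragments a library, and CSA lay above them at 325 to 336 fragments. The CSA to CFA difference was 2.31 (SE 0.34, limma adjusted p 0.000319) and the CSA to CSS difference 2.17 (limma adjusted p 0.000393). With a pseudocount of 1 FPKM in place of 0.1, the CSA to CFA difference of Rgs1 was 1.297, below the fold limit. The annotated exons of Rgs1 merge into 1 block of 6947 bases over the whole gene, so fragments from its introns count toward it.

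Rgs18 (ENSMUSG00000026357), known from platelets and megakaryocytes, had the widest spread in CSA relative to its mean, at 4.25 ± 2.91 FPKM (SD, n = 3). It measured 0.639, 1.34 and 0.971 FPKM for CFS, 1.298, 0.983 and 0.950 FPKM for CSS, 2.67, 1.62 and 1.88 FPKM for CFA and 2.04, 3.16 and 7.55 FPKM for CSA. CSA and CFA overlapped, CSS and CFS overlapped, and both Ang II groups lay above both saline groups. The CSA to CFA difference of 0.83 (SE 0.42, limma adjusted p 0.143) was not called, with a 95% interval from -0.10 to 1.77, and without CSA03 it was 0.32 (adjusted p 0.447). The CSA to CSS difference of 1.69 (limma adjusted p 0.00704) was called with all mice, but it rested on CSA03: without that library Rgs18 differed by 1.18 (adjusted p 0.0118), under the fold limit. The platelet and megakaryocyte markers (8 genes, of which Gp1bb was listed at 0 in every library) summed to 24.0 to 54.7 FPKM in CSA and 24.4 to 50.9 FPKM in the other groups. CSA03 had the lowest of these sums and the highest Rgs18. In CFS and CFA the mouse with the highest Rgs18 had the highest sum of its group (45.1 FPKM in CFS69, 50.9 FPKM in CFA71). In CSS the mouse with the highest Rgs18 had the lowest sum (32.1 FPKM in CSS54). Pf4 alone gave 18.6 to 47.4 FPKM of the CSA sums. Of the 5 markers tested, 1 had a positive CSA to CFA difference (median -1.02). The part of these markers in the Rgs18 values was not tested.

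Rgs10 (ENSMUSG00000030844), a small regulator of Gi class subunits known from macrophages and microglia, separated all 4 groups. It measured 4.74, 5.22 and 4.78 FPKM for CFS, 4.65, 4.32 and 3.92 FPKM for CSS, 7.00, 9.75 and 5.46 FPKM for CFA and 30.3, 35.0 and 28.7 FPKM for CSA. The order was CSA, CFA, CFS and CSS, and no neighbors in it overlapped, though CSS differed from CFS by -0.19 on the log2 scale and was not called. The mean in CSA was 31.4 ± 3.30 FPKM against 7.40 ± 2.17 in CFA (SD, n = 3). The difference was 2.10 (95% interval 1.69 to 2.51, limma adjusted p 9.78e-06), or 4.29-fold. Against CSS it was 2.84 (limma adjusted p 1.03e-06). By mean FPKM, Rgs10 moved from rank 5780 of the tested genes in CFA to rank 1380 in CSA.

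Rgs19 (ENSMUSG00000002458), a regulator of Gi class subunits, was also highest in CSA. It measured 7.06, 5.18 and 6.45 FPKM for CFS, 6.32, 6.48 and 6.45 FPKM for CSS, 7.74, 9.91 and 6.11 FPKM for CFA and 23.1, 24.8 and 29.6 FPKM for CSA. CFS, CSS and CFA overlapped and CSA stood above all of them. The CSA to CFA difference was 1.71 (SE 0.18, limma adjusted p 3.08e-05), or 3.28-fold, and the CSA to CSS difference was 1.98 (limma adjusted p 7.98e-06).

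Because Rgs5 outweighed the other members, the total RGS message followed it. The 9 members summed to 920.3 ± 258 FPKM in CFS, 1657 ± 95.4 in CSS, 1040.4 ± 337 in CFA and 289 ± 26.1 in CSA (SD, n = 3). Rgs5 made up 89.4 to 94.0% of this sum in CFS, 96.1 to 96.7% in CSS, 90.9 to 94.8% in CFA and 61.3 to 63.6% in CSA. The other 8 members together were highest in CSA, with 61.5 to 71.3 FPKM in CFS, 56.9 to 62.4 in CSS, 64.3 to 76.9 in CFA and 100.9 to 119 in CSA. In CSA the sum without Rgs5 therefore exceeded every value of the other groups, while the sum with Rgs5 was below all of them.

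**Figure D2:**
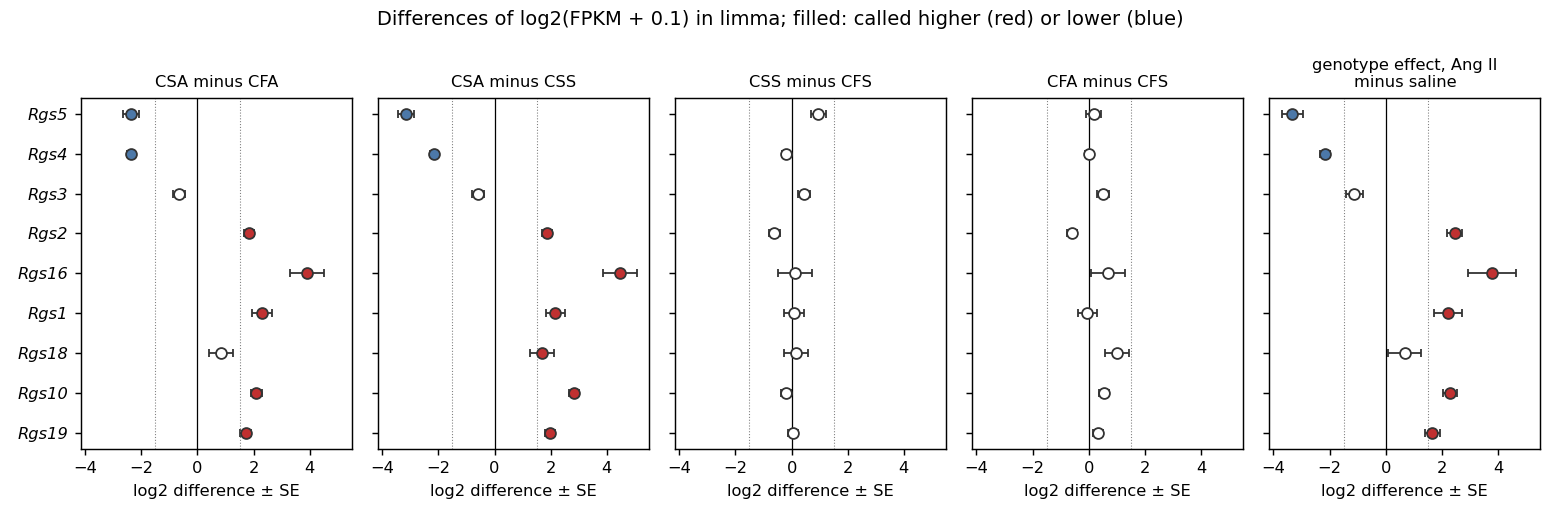
Differences of log2(FPKM + 0.1) for the 9 members in limma, with bars of ± 1 SE, in 5 panels: CSA minus CFA, CSA minus CSS, CSS minus CFS, CFA minus CFS, and the genotype difference under Ang II minus that under saline. Filled points are called higher (red) or lower (blue), dotted lines mark the fold limit of 1.5, and only the panels that contain CSA hold filled points.

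Under saline, CCN2 deletion gave no called member. In CSS versus CFS 0 of 9 members were called higher and 0 lower in limma, where 0.00681% of all tested genes were called in each direction, and 2 members had an unadjusted p under 0.05, as did 6.3% of all tested genes. These were Rgs5, higher in CSS by 0.95 (95% interval 0.35 to 1.56, p 0.00537, adjusted p 0.474 in limma), and Rgs2, lower by 0.62 (log2 difference -0.62, p 0.00781, adjusted p 0.518). The CSS and CFS mice did not overlap in 3 members, Rgs5, Rgs2 and Rgs10, nor did they in 20.4% of all tested genes. Rgs5 was thus 1.93-fold higher in the deleted mice under saline and 5.18-fold lower in them under Ang II. Only the latter passed the adjustment. With 1 mouse left out the saline difference of Rgs5 ran from 0.67 to 1.12. Adipocyte markers had a positive difference in CSS versus CFS in 0 of 8 (median -1.17), with 0 called. The mouse with the lowest Rgs5 in CFS, CFS70 (561 FPKM), had the highest adipocyte marker sum (2878 FPKM). The mouse with the highest Rgs5, CSS54 (1656 FPKM), had an adipocyte marker sum of 862 FPKM. That sum was above those of CFS68 (717 FPKM) and CFS69 (826 FPKM). The part of these markers was not tested. For Rgs16 the interval was wide, from -1.22 to 1.46, and for Rgs19 it was narrow, from -0.35 to 0.45. Rgs4 differed by -0.20 (95% interval -0.49 to 0.09).

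In CCN2fl/fl mice, Ang II gave no called member either. In CFA versus CFS 0 of 9 were called higher, where 0.0204% of all tested genes were, and 0 lower, where 0.00681% were. These shares stand for 4 genes, which became 124 without CFA74 and 147 with array weights. In limma 4 members had an unadjusted p under 0.05, as did 9.42% of all tested genes. Rgs18 was higher by 1.02 (limma adjusted p 0.478), Rgs10 by 0.54 (adjusted p 0.361) and Rgs3 by 0.52 (adjusted p 0.466), and Rgs2 was lower, at -0.59 (adjusted p 0.312). In these 4 members the CFA mice did not overlap the CFS mice, nor did they in 20.2% of all tested genes. Macrophage markers had positive differences in 8 of 8 (median 0.55) and Gi-coupled leukocyte receptors in 19 of 20 (median 1.02). So did 5 of 5 platelet and megakaryocyte markers tested (median 0.55) and 5 of 5 erythroid markers tested (median 2.03). SMC markers had positive differences in 1 of 8 (median -0.27). In these lists 0 genes were called, and their part in the member differences was not tested. Rgs4 differed by 0.01 (95% interval -0.27 to 0.30) and Rgs5 by 0.17 (-0.43 to 0.78).

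In CCN2SMCΔ mice the same infusion moved nearly every member. In CSA versus CSS 6 of 9 were called higher, where 10.9% of all tested genes were, and 2 were called lower, where 9.36% were. The member median, a description that again includes Rgs1 and Rgs16, was 1.87 beside -0.06 for all tested genes. Both this comparison and CSA versus CFA contain the CSA libraries, so their likeness is not independent. The log2 difference of Rgs2 from saline to Ang II was -0.59 in floxed mice, not called, and 1.87 in deleted mice.

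The test of the difference between the 2 genotype effects, (CSA minus CFA) minus (CSS minus CFS), called 5 members higher, where 7.89% of all tested genes were, and 2 lower, where 7.31% were. On adjusted p alone 8 members passed, as did 26.4% of all tested genes. The Rgs5 term was -3.33 (SE 0.39, limma adjusted p 0.000197) and the Rgs4 term -2.17 (SE 0.18, adjusted p 3.62e-05). Rgs2 had a term of 2.46 (SE 0.27, adjusted p 0.000131), larger than its CSA to CFA difference because it was lower in CSS than in CFS. Rgs16 had 3.78 (SE 0.86, adjusted p 0.00792, or 2.45 with a pseudocount of 1 FPKM), Rgs10 2.29 (SE 0.26, adjusted p 0.000176), Rgs1 2.22 (SE 0.49, adjusted p 0.00668) and Rgs19 1.66 (SE 0.26, adjusted p 0.000937). For Rgs3 the term of -1.12 (adjusted p 0.0188) passed on p but not on size, and for Rgs18 the term of 0.67 (95% interval -0.65 to 1.99, adjusted p 0.453) did not pass. Leaving out CSA03 kept the counts at 5 and 2. Without CFA74 the Rgs19 term was 1.49, and with a pseudocount of 1 FPKM the Rgs1 term was 1.28, both under the fold limit.

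Markers of several cell types moved in the same comparison as the members. In CSA versus CFA 8 of 8 SMC markers were called lower, with a median log2 difference of -3.19, and 7 of 8 macrophage markers were called higher, with a median of 2.68. Pericyte markers were called lower in 2 of 8 (median -0.72, or -0.48 without CSA03), with sums of 123 to 220 FPKM in CSA and 415 to 581 FPKM elsewhere. T cell markers summed to 29.6 to 40.3 FPKM in CSA and to at most 4.14 FPKM elsewhere. Of the markers tested, 7 of 7 for T cells, 4 of 7 for neutrophils and 3 of 3 for B cells passed the filter only through their CSA level, so counts of calls over these lists are not given. Markers were called lower for endothelial cells in 3 of 8 (median -0.83, or -0.39 without CSA03) and for adipocytes in 2 of 8 (median -1.78, or -1.24). They were called lower for fibroblasts in 1 of 8 (median -0.37) and for erythroid cells in 5 of the 5 tested (median -3.01). Without CSA03 the erythroid median was -2.37, with 0 erythroid markers called. The summed fibroblast markers were nevertheless higher in CSA, at 3581 to 4270.5 FPKM against 2276 to 2507 FPKM in CFA. Col1a1 alone gave 2561 to 3262 FPKM of the CSA sums and 1383 to 1512 FPKM of the CFA sums. Of the 8 fibroblast markers 4 had a positive difference. The part of these shifts in the member results was not tested.

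Set against the mean log2 level of the 8 SMC markers of the same library, Rgs5 and Rgs4 were not lower in CSA. Rgs5 exceeded that mean by 1.78 in CFS, 2.71 in CSS, 2.27 in CFA and 3.20 in CSA (group means of log2 differences). In CSA the range was 2.997 to 3.57, above the range of every other group. Rgs4 lay below the SMC mean, at -2.70 in CFS, -2.93 in CSS, -2.37 in CFA and -1.44 in CSA, and so did Rgs3, at -5.25 in CFS, -4.83 in CSS, -4.41 in CFA and -1.78 in CSA. All 3 genes thus stood highest against the SMC mean in CSA, and so did every other member. The SMC markers had a median CSA to CFA difference of -3.19, a larger fall than that of any member. Against the 8 pericyte markers the CSA means of Rgs5 and Rgs4 were the lowest. Rgs5 stood at 4.93 in CFS, 5.88 in CSS, 5.17 in CFA and 3.85 in CSA, and Rgs4 at 0.45, 0.24, 0.52 and -0.80. Rgs3 stood at -2.10, -1.66, -1.52 and -1.14 in the same order. The CSA range of Rgs5, 3.14 to 4.79, overlapped those of CFS and CFA, and the CSA range of Rgs3 overlapped those of CSS and CFA.

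Against the mean of the 8 macrophage markers, Rgs10 stayed between -2.50 and -1.81 in all 12 libraries, with group means of -2.00 in CFS, -2.32 in CSS, -2.02 in CFA and -2.38 in CSA. Rgs19 was lower relative to those markers in CSA (-2.66) than in CFS (-1.67), CSS (-1.75) or CFA (-1.91), and Rgs2 was at -0.95 in CFS, -1.70 in CSS, -2.11 in CFA and -2.73 in CSA, with CFA and CSA overlapping. Rgs16 alone among the members called higher stood higher relative to them, at -4.55 in CSA against -6.11 in CFS, -6.11 in CSS and -5.98 in CFA. Against the 8 neutrophil markers the means of Rgs16 and Rgs10 were lowest in CSA. Rgs16 stood at -0.51 in CFS, -0.16 in CSS, -0.70 in CFA and -1.09 in CSA, and these groups overlapped. Rgs10 stood at 3.598, 3.64, 3.27 and 1.08 in the same order. Outside CSA 1 to 4 of the 8 neutrophil markers were listed at 0, and Rgs16 rested on 1 to 26 fragments a library. The values outside CSA therefore depend on the pseudocount, and they cannot show how closely either gene followed these markers. Against the 8 T cell markers the Rgs16 mean was highest in CSA, at 1.25 against 0.54 in CFS, -0.05 in CSS and 0.84 in CFA. The groups again overlapped. T cell markers summed to at most 4.14 FPKM outside CSA, so these values too depend on the added 0.1 FPKM. All of these ratios are descriptions of the same libraries, without a test.

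**Figure D3:**
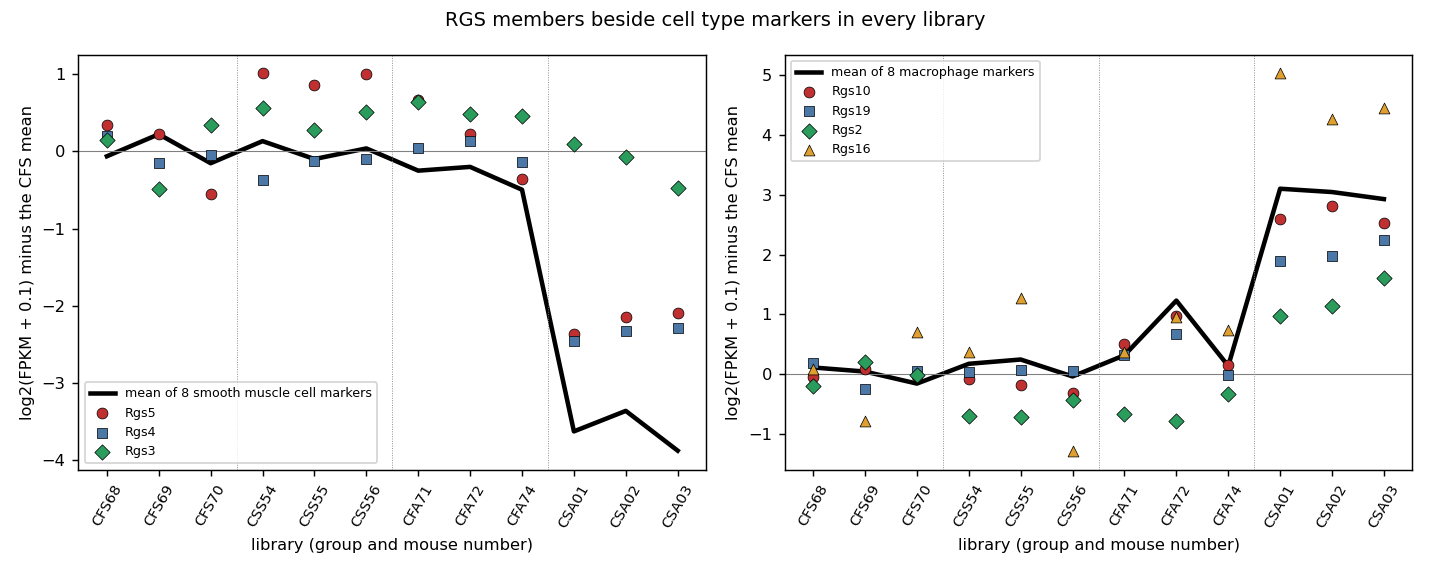
Members and cell type markers in every library, as log2(FPKM + 0.1) minus the CFS mean, by library (group and mouse number). The left panel sets Rgs5, Rgs4 and Rgs3 (points) beside the mean of 8 SMC markers (line), which falls further than they do in CSA, and the right panel sets Rgs10, Rgs19, Rgs2 and Rgs16 beside the mean of 8 macrophage markers, which Rgs10 tracks most closely and Rgs16 exceeds in CSA.

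The genes with the most similar pattern over the 12 libraries, by Pearson correlation among 13325 genes with a mean of at least 1 FPKM, were different for each member. For Rgs5 they were Serpine2 (r = 0.988), Fzd7 (0.978) and Ccn3 (0.978), and for Rgs4 they were Cbr2, Ptprz1 and Cdkl2 (each 0.987). For Rgs10 they were Cxcl5, Csf3r and AB124611 (each 0.992), and for Rgs19 Pdia5 (0.994), Arpc5 (0.993) and Cd53 (0.993). Csf3r is the granulocyte colony-stimulating factor receptor and Cd53 a leukocyte tetraspanin. Rgs16 was most like Lpcat2 (0.979), Cdk14 (0.977) and Arl6ip1 (0.976), Rgs1 like Tlr2 (0.977), Gm6548 (0.977) and Ddx60 (0.976), and Rgs2 like Dleu2 (0.971), Ngp (0.966) and Vipas39 (0.960). The matches were weaker for Rgs3, with Nkx2-3 (0.933), Sec14l2 (0.932) and Heg1 (0.927), and for Rgs18, with Npm1 (0.944), Nsmce1 (0.941) and Ugdh (0.940). Between members r was 0.975 for Rgs10 with Rgs19, 0.901 for Rgs4 with Rgs5 and -0.935 for Rgs4 with Rgs1. All of these correlations share the same 12 libraries and the step between CSA and the rest.

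Of the other RGS genes and partners, 11 of 19 were expressed enough to be tested. Beside shares of 8.95% higher and 8.27% lower over all tested genes, 2 of these 11 were called higher and 5 lower in CSA versus CFA. Their median was -0.82 (-0.28 without CSA03), against -0.04 for all tested genes. Those lower were Rgs7 of the R7 group, at -3.02 (limma adjusted p 1.49e-06), its membrane anchor Rgs7bp at -2.53 (adjusted p 8.94e-05), Rgs17 of the RZ group at -2.14 (adjusted p 0.000284), the Gi-binding Gpsm2 at -2.10 (adjusted p 0.000149) and Rgs11 of the R7 group at -1.67 (adjusted p 0.000818). Those higher were Rgs14 at 2.49 (adjusted p 0.00254), which was tested only because it reached 1 FPKM in the 3 CSA libraries, and Gpsm3, a Gi-binding protein of leukocytes, at 1.71 (adjusted p 0.00261). Rgs7bp measured 11.7 to 16.1 FPKM in CFA and 1.41 to 4.20 FPKM in CSA, and Rgs7 2.62 to 3.06 FPKM in CFA and 0.246 to 0.313 FPKM in CSA. Rgs14 and Gpsm3 were lower in CSA03 than in the other CSA mice, at 1.68 and 8.99 FPKM against 4.67 to 5.30 and 27.0 FPKM. Rgs12 differed by -0.01, Axin1 by -0.20, Axin2 by -0.02 and Gpsm1 by -0.82 (adjusted p 0.0996), and none of them was called. Without CSA03 the Rgs11 difference was -1.40, under the fold limit. By group of the family, RZ thus held Rgs19, called higher, and Rgs17, called lower, while in R12 Rgs10 and Rgs14 were called higher and Rgs12 was not called. The 7 tested R4 genes were all members.

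The genes on which RGS proteins act, and the receptors upstream, were counted in the same comparison from lists chosen by function, beside the all-gene median of -0.04 and the shares of all tested genes called higher (8.95%) and lower (8.27%). Among G protein alpha subunits 1 of 11 tested was higher, Gna15 of the Gq class at 2.20 (limma adjusted p 2.37e-05), and 1 lower, Gnai1 at -1.69 (adjusted p 6.85e-05), with a median of -0.35. Gnaz, the Gz subunit, was at -1.37 (adjusted p 0.00559), short of the fold limit, but without CSA03 it was at -1.70 and called. Among beta and gamma subunits 2 of 11 were higher, Gngt2 at 2.74 and Gng2 at 2.28, and 1 lower, Gng7 at -1.53 (median 0.07), whose difference was -1.20 and not called without CSA03. Of 7 receptor kinases and arrestins 1 was higher, Arrb2 at 3.13 (median -0.06, or 0.28 without CSA03), while Grk2 at 0.83 and Grk5 at -0.67 passed on p alone. Of 15 effectors of Gq 2 were higher and 3 lower (median -0.38), led by Plcb2, a phospholipase C of blood cells, at 3.11, Plcb4 at -2.19 and Prkcb at 1.90. Plcb2 and Prkcb, the 2 called higher, passed the filter only through their CSA level.

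Of 16 Gq-coupled contractile receptors 0 were higher and 5 lower, with a median of -0.52, and the largest differences were those of the alpha-1 adrenergic receptors Adra1d, at -4.09 (limma adjusted p 5.37e-05), and Adra1a, at -3.96 (adjusted p 9.91e-07), and of Agtr1b, an Ang II receptor gene, at -2.50 (adjusted p 2.30e-05). The other Ang II receptor gene listed, Agtr1a, overlapped between the groups, at 1.39 to 2.22 FPKM in CFA and 1.17 to 1.55 FPKM in CSA. Of 20 Gi-coupled leukocyte receptors 18 were higher and 0 lower, with a median of 3.53, but 10 of the 20 passed the filter only through their CSA level, so this count is a description. Among them were Cxcr2 at 5.12 (adjusted p 2.38e-05) and Fpr2 at 4.81 (adjusted p 8.79e-05). Without CSA03 4 contractile receptors were lower and 17 leukocyte receptors higher, because Tbxa2r at -1.41 and P2ry12 at 1.23 came under the fold limit. The lower contractile receptors and the lower SMC markers moved together, and the part of the markers was not tested.

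**Figure D4:**
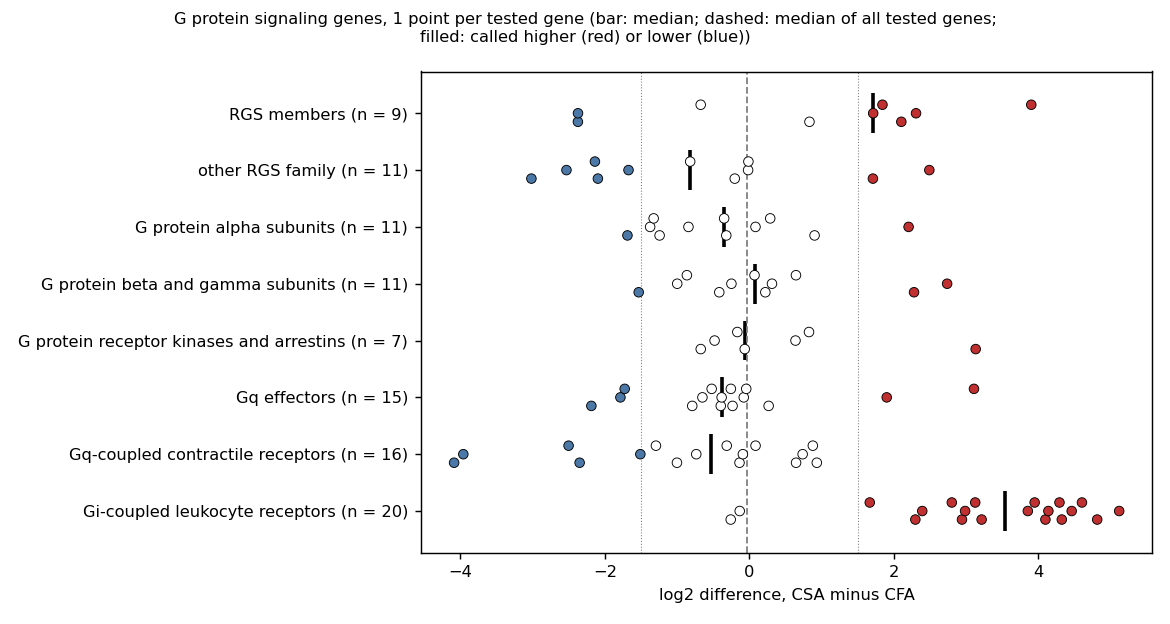
log2 difference of CSA minus CFA for every tested gene of the RGS members and of 7 lists of G protein signaling genes, 1 point per gene, with bars for the list medians and a dashed line for the median of all tested genes. Filled points are called higher (red) or lower (blue), and the leukocyte receptors, with a median of 3.53, sit furthest to the right while the contractile receptors reach -4.09.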

How the data were processed

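RNA of the abdominal aorta was sequenced from 12 mice. The authors mapped reads to mm10 with HISAT2 (2.0.5), and their processing notes also name StringTie (1.3.3b) and featureCounts (1.5.0-p3). The authors deposited FPKM per gene. The median ratios between libraries were already level, so those values carry a scaling whose method is not given in the sources used here. Fragments were recovered from the FPKM steps, and 98.05 to 98.53% of values under 100 fragments were whole within 0.05.

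Ensembl genes were named from GENCODE annotation of GRCm38 for 54495 of 54532 identifiers, and the table held 55092 features. The study tested counts with DEG-Seq. The unit here is FPKM, so limma (3.58.1, R 4.3.3, eBayes with trend and robust settings, 1 coefficient per group over all 12 libraries) was run on log2(FPKM + 0.1) for 14676 genes, with Benjamini-Hochberg adjustment and two-sided tests. The script was tested on simulated data. Tables were built in Python (3.11.15) with numpy (2.4.6) and pandas (2.3.3), and figures with matplotlib (3.10.9). The 4 comparisons and the interaction were fitted together, and the exact permutation test was two-sided on 3 against 3 mice. Promoters were RefSeq windows (GRCm38.p6).

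The genes named are all members, the tested genes of the other RGS list, of each other list the 3 tested genes with the largest difference in CSA versus CFA, Ccn2, and the 3 genes most like each member. One gene that this rule names is not reported here. Rgs11, Gnaz, Gng7, Tbxa2r, P2ry12, Agtr1a and the markers Ly6g, Gp1bb, Col1a1 and Pf4, where outside that rule, were named after their values were seen. Members and lists were chosen with earlier results of these data known. Alternatives covered the pseudocount, filter, scaling, variance settings, library weights, thresholds, groups in the fit and each mouse left out. A fit without CFS68 and CSS55 was chosen after seeing the data.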

Additional observations from a re-analysis of the deposited data

Results flagged for a closer look

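For 8 of the 9 members the genotype difference was not alike under Ang II and saline, by the interaction term in limma at an adjusted p under 0.05, which 26.4% of all tested genes also passed. Rgs1 and Rgs16 were tested only because of their CSA levels. The term, the genotype difference under Ang II minus that under saline on the log2 scale, was 2.22 for Rgs1, 2.46 for Rgs2, 2.29 for Rgs10, 3.78 for Rgs16 and 1.66 for Rgs19. It was -1.12 for Rgs3, -2.17 for Rgs4 and -3.33 for Rgs5. Of these, Rgs3 passed on adjusted p alone and stayed under the fold limit. Rgs5, Rgs2, Rgs3 and Rgs10 had mean differences of opposite sign under the 2 infusions. Rgs5 was at 0.95 under saline and -2.37 under Ang II, and Rgs2 at -0.62 and 1.84. With 1 mouse left out, Rgs3 ran from 0.20 to 0.62 under saline and from -0.80 to -0.51 under Ang II. Rgs10 ran from -0.25 to -0.13 and from 1.91 to 2.32 in the same settings. The saline difference did not pass the adjustment for any of these genes.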

How the results depend on the processing

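In CSA versus CFA, CSA versus CSS and the interaction no member changed sign under any alternative run. Requiring a mean of at least 5 FPKM left 3 members called higher in each of these, because Rgs1, Rgs16 and Rgs18 were then not tested. Leaving out 1 mouse at a time gave 5 to 5 members higher and 2 to 2 lower in CSA versus CFA, 5 to 6 and 2 to 2 in CSA versus CSS (5 without CSA03, Rgs18 at 1.18), 4 to 5 and 2 to 2 in the interaction (4 without CFA74, Rgs19 at 1.49), and 0 to 0 in both directions in CSS versus CFS and CFA versus CFS. With a pseudocount of 1 Rgs1 came under the fold limit, at 1.297 against CFA, 1.25 against CSS and 1.28 in the interaction, and so did Rgs18 against CSS (1.201, and 1.31 with array weights). Differences that were never called changed sign. In CSS versus CFS, Rgs16 was at -0.024 with array weights and -0.41 without CFS68 and CSS55, and Rgs18 at -0.036 without those libraries. In CFA versus CFS, Rgs1 was at 0.13 with array weights and 0.18 without CFS68, and Rgs4 at -0.0046 with array weights. With 1 mouse left out, the ranges in CSS versus CFS were -0.20 to 0.32 for Rgs1, -0.45 to 0.82 for Rgs16, -0.090 to 0.39 for Rgs18 and -0.071 to 0.15 for Rgs19, and in CFA versus CFS -0.34 to 0.18 for Rgs1, -0.061 to 0.11 for Rgs4 and -0.10 to 0.44 for Rgs5. Over all tested genes, the calls in CSA versus CFA were 1314 higher and 1214 lower, against a total of 1601 with a pseudocount of 1, 1095 at a mean of at least 5 FPKM and 5978 with no fold limit. The same settings gave 1918, 1272 and 6781 against 1604 higher and 1373 lower in CSA versus CSS, and the last 2 gave 1078 and 3877 against 1158 higher and 1073 lower in the interaction. At a mean of at least 5 FPKM the share of CSA versus CFA calls that were higher was 41.28% in place of 51.98%. CSS versus CFS had 2 calls, with 0 to 4 when 1 mouse was left out, 5 without a filter, 35 with array weights, 132 at an unadjusted p and 20 with only those groups fitted. CFA versus CFS had 4 calls, with 0 to 124 when 1 mouse was left out (124 without CFA74), 10 with FPKM scaled to the same sum, 147 with array weights and 243 at an unadjusted p. Apart from the effect of testing fewer genes, the cause was not tested. No paired analysis was possible because the groups share no replicate numbers. Depth limits Rgs16 most, with 1 to 26 fragments a library outside CSA.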
